A study of Mus musculus with 6 samples.

Results

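The genes described are the PPAR, PGC-1, and ERR regulators of oxidative metabolism in the left ventricle (LV), with 3 genes that they are known to control. The regulators were *Ppara*, *Ppard*, *Ppargc1a*, *Ppargc1b*, *Esrra*, *Esrrg*, and *Rxra*, and the targets were *Pdk4*, *Ucp3*, and *Angptl4*. They were chosen by name, not by level, and make up 10 of the 56923 genes listed. All 10 passed the filter on low counts, which left 17212 genes to test. mRNA-Seq was done on PBS-perfused LVs of 12-week-old mice, 3 of them WT (*Lztr1* +/+) and 3 heterozygous *Lztr1* R409C/+, with 1 library per mouse. R409C is a CRISPR/Cas9 knock-in substitution in *Lztr1*, which encodes an adaptor for the turnover of RAS-family proteins, and the mice of both genotypes were on a C57BL/6J background. The methods give male mice for the phenotype work, while the sample labels give no sex, call the tissue heart, and call the second genotype mutant only. The comparison asked whether the mutation, under which the study examined cardiac hypertrophy, came with other transcript levels of these genes.

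PPARs are nuclear receptors that bind fatty acids and their derivatives and act on DNA as heterodimers with an RXR. ERRs are related receptors without a known physiological ligand, and both groups recruit the PGC-1 coactivators, which do not bind DNA themselves. In heart muscle, these proteins are known to drive genes for fatty acid uptake, β-oxidation, the tricarboxylic acid cycle, and respiration, and transcripts of PPAR targets are known to be higher in fasting.

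Total counts were between 66130887 and 72641124 per mouse. Levels are given as CPM, the counts scaled by library size times the TMM factor of the library, and 3 counts corresponded to 0.0317 to 0.0541 CPM. Mitochondrially encoded genes took 13.8% of counts in WT mouse 3, 45.4% in *Lztr1* R409C/+ mouse 1, and 29.7% to 37.3% in the other 4 mice, and the TMM scaling factors of those first 2 libraries were the extremes, 1.39 and 0.8. *Lztr1* itself was at 24.2, 24.2, and 22.2 CPM in WT and 23.9, 27.9, and 25.3 CPM in *Lztr1* R409C/+ mice, which does not check the labels because a single amino acid substitution need not alter the transcript level. Summed CPM of 8 cardiomyocyte markers was 35943 to 40347 in WT and 24950 to 40074 in *Lztr1* R409C/+ mice, 5 erythrocyte markers summed to 578.8 to 1478.8 CPM and 1041.8 to 2625.5 CPM, and 5 adipocyte markers summed to 0.249 CPM at most. In whole tissue, fewer cells of a type and less RNA per cell cannot be told apart. The p-values set a genotype difference against the variation between these mice and do not measure that variation.

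None of the 10 members passed the edgeR quasi-likelihood test at a false discovery rate (FDR) of 0.05, a threshold that 7 of the 17212 genes passed (0.0407%). No member was under an unadjusted p of 0.05 in that test, against 8.63% of tested genes, and none passed with DESeq2, against 0.871%. Among the regulators, the fitted log2 fold changes, *Lztr1* R409C/+ against WT, ran from -0.37 for *Ppara* to 0.2 for *Rxra*. Among the targets, they ran from 0.09 for *Ucp3* to 1.32 for *Angptl4*, with much wider intervals. For each target, the ratio of the highest to the lowest mouse within either genotype was larger than the ratio of the genotype means, and *Pdk4*, *Ucp3*, and *Angptl4* were all highest in WT mouse 1 and *Lztr1* R409C/+ mouse 2.

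**Figure D1:**
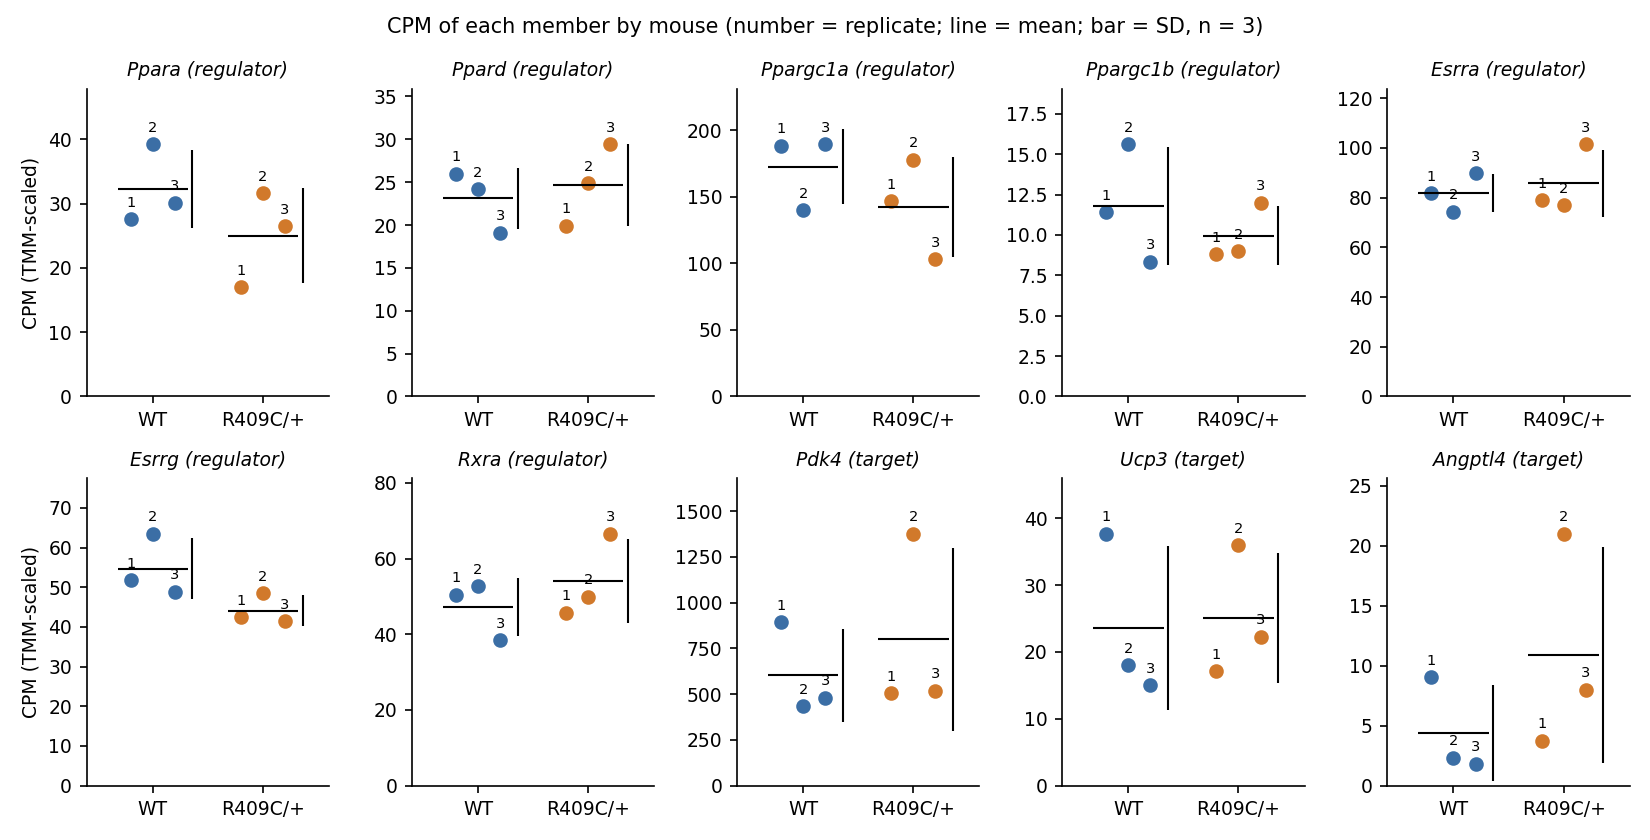
CPM (TMM-scaled, linear axis from 0) of each of the 10 genes in the 3 WT (blue) and 3 *Lztr1* R409C/+ (orange) LVs, with the replicate number above each point, the mean as a horizontal line, and the SD as a vertical bar. The groups overlap for every gene except *Esrrg*, and the 3 target genes each stand high in WT mouse 1 and *Lztr1* R409C/+ mouse 2.

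Of the PPARs, *Ppara* (ENSMUSG00000022383.14, chromosome 15, 85618656 to 85687067, GRCm39) encodes PPARα, the main receptor for fatty acid oxidation genes in heart. Its level was 27.6, 39.2, and 30.1 CPM in WT mice 1, 2, and 3 and 17.0, 31.6, and 26.5 CPM in *Lztr1* R409C/+ mice 1, 2, and 3. WT mouse 2 was highest and *Lztr1* R409C/+ mouse 1 lowest, and the groups overlapped. The means were 32.3 ± 6.1 and 25.0 ± 7.39 CPM (SD, n = 3 each), a 0.775-fold ratio with a 95% interval of 0.554 to 1.09 (log2 fold change -0.37, SE 0.22, FDR 0.685). The estimate was -0.16 without *Lztr1* R409C/+ mouse 1, the library with the largest mitochondrial share, and -0.58 without *Lztr1* R409C/+ mouse 2. Exons of *Cdpf1* on the opposite strand cover 27.4% of the exon bases of *Ppara*, and whether counting used strand is not given in the sources used here, so part of its counts is uncertain.

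*Ppard* (ENSMUSG00000002250.17, chromosome 17, 28451674 to 28520448) encodes PPARδ, which is widely expressed and also acts on fatty acid genes in muscle. It was at 26.0, 24.2, and 19.1 CPM in WT and 19.9, 24.9, and 29.4 CPM in *Lztr1* R409C/+ mice. The ranges nearly coincided, with means of 23.1 ± 3.55 and 24.7 ± 4.77 CPM (log2 fold change 0.1, SE 0.19, FDR 0.92). The sign of this small difference turned without WT mouse 3 and without *Lztr1* R409C/+ mouse 3.

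*Rxra* (ENSMUSG00000015846.16, chromosome 2, 27566452 to 27653330), which encodes RXRα, an obligate partner of the PPARs, was at 50.5, 52.7, and 38.5 CPM in WT and 45.7, 49.9, and 66.6 CPM in *Lztr1* R409C/+ mice. *Lztr1* R409C/+ mouse 3 stood above all other mice and WT mouse 3 below them, and the remaining 4 lay close together across genotypes. The mean levels of 47.2 ± 7.63 and 54.1 ± 11.1 CPM gave a ratio of 1.15 with a 95% interval of 0.865 to 1.52 (FDR 0.812). The log2 fold change of 0.2 was 0.02 without *Lztr1* R409C/+ mouse 3.

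Of the coactivators, *Ppargc1a* (ENSMUSG00000029167.14, chromosome 5, 51611592 to 51725068) encodes PGC-1α, a coactivator of both receptor families that is induced by cold, exercise, and fasting. Its level was 188.1, 139.9, and 189.2 CPM in WT and 146.5, 177.7, and 102.9 CPM in *Lztr1* R409C/+ mice. The lowest and the highest mice differed 1.84-fold, and the groups overlapped. The means were 172.4 ± 28.1 and 142.4 ± 37.6 CPM, a 0.826-fold ratio with a 95% interval of 0.602 to 1.13 (log2 fold change -0.28, SE 0.21, FDR 0.757). Without *Lztr1* R409C/+ mouse 3, the mouse with the lowest value, the log2 fold change was -0.09.

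*Ppargc1b* (ENSMUSG00000033871.15, chromosome 18, 61431195 to 61533735) encodes PGC-1β, a related coactivator of mitochondrial genes. It was at 11.4, 15.6, and 8.35 CPM in WT and 8.81, 8.99, and 12.0 CPM in *Lztr1* R409C/+ mice. WT mouse 2 was highest, and the lowest value was also that of a WT mouse. The log2 fold change of -0.24 (SE 0.24, FDR 0.817) was 0.01 without WT mouse 2.

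Of the orphan receptors, *Esrra* (ENSMUSG00000024955.16, chromosome 19, 6888338 to 6899336) encodes ERRα, which acts with PGC-1α on respiratory chain and tricarboxylic acid cycle genes. Its level of 81.7, 74.4, and 89.8 CPM in WT and 78.9, 76.9, and 101.4 CPM in *Lztr1* R409C/+ mice varied least among the 10 genes, 1.36-fold from the lowest to the highest mouse. The ratio of 1.05 had a 95% interval of 0.816 to 1.34 (FDR 0.944). Its log2 fold change of 0.06 turned to -0.1 with library size only, to -0.03 with a correction for gene length, to -0.004 without WT mouse 2, and to -0.07 without *Lztr1* R409C/+ mouse 3. *Trmt112* on the opposite strand covers 29.6% of the exon bases of *Esrra*, with the same uncertainty as for *Ppara*.

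*Esrrg* (ENSMUSG00000026610.14, chromosome 1, 187340988 to 187947082) encodes ERRγ, which is prominent in tissues of high oxidative capacity and acts on metabolic and contractile genes of the heart. It was at 51.8, 63.5, and 48.9 CPM in WT and 42.5, 48.5, and 41.4 CPM in *Lztr1* R409C/+ mice. All 3 WT values lay above all 3 *Lztr1* R409C/+ values, although the lowest WT and the highest *Lztr1* R409C/+ mouse were separated by less than the SD of either group. The groups of 15.5% of tested genes did not overlap either, and those of 7.23% were apart in the same direction. The means were 54.7 ± 7.73 and 44.1 ± 3.84 CPM, a 0.806-fold ratio with a 95% interval of 0.635 to 1.02 (log2 fold change -0.31, SE 0.16, FDR 0.618). Without WT mouse 2, the highest of the 6, the log2 fold change was -0.19. The exact permutation test, two-sided, gave 0.1, the smallest p that 3 mice against 3 allow.

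**Figure D2:**
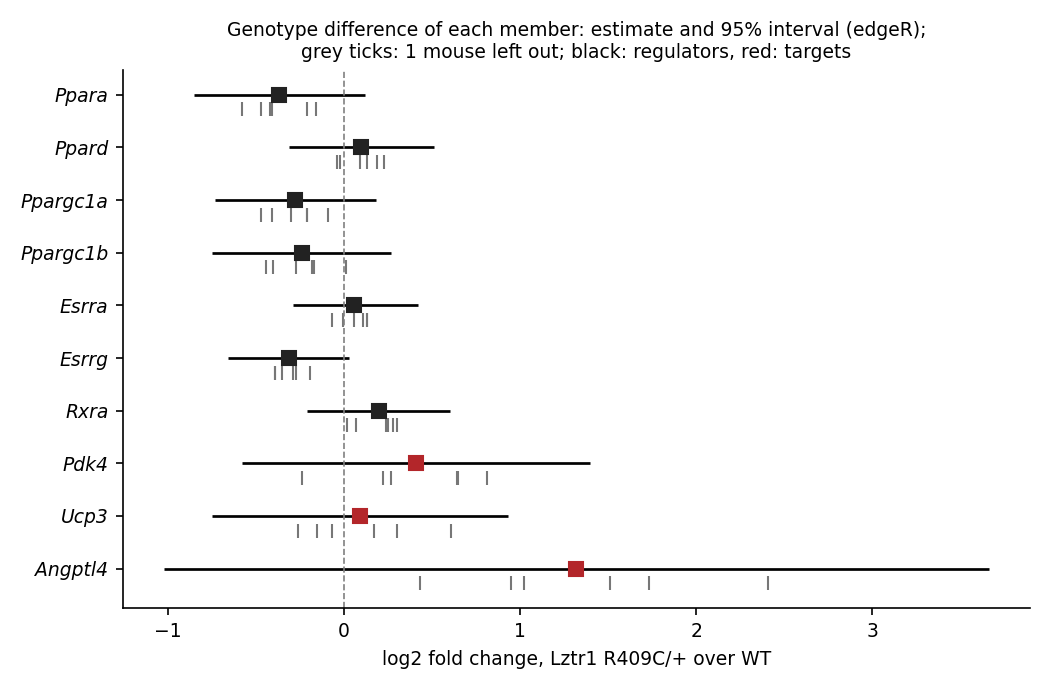
Log2 fold change of *Lztr1* R409C/+ over WT for each of the 10 genes (squares, black for regulators and red for targets) with its 95% interval from edgeR (lines) and the estimates with each of the 6 mice left out in turn (grey ticks). Every interval spans 0, and those of *Pdk4*, *Ucp3*, and above all *Angptl4* (-1.02 to 3.66) are the widest.

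Of the targets, *Pdk4* (ENSMUSG00000019577.7, chromosome 6, 5483097 to 5496339) encodes a kinase that phosphorylates and inhibits the pyruvate dehydrogenase complex and thereby spares glucose. *Ucp3* (ENSMUSG00000032942.15, chromosome 7, 100122136 to 100135976) encodes an uncoupling protein family carrier of the inner mitochondrial membrane that is found mainly in muscle. *Angptl4* (ENSMUSG00000002289.17, chromosome 17, 33992724 to 34000804) encodes a secreted inhibitor of lipoprotein lipase. The 250 bases before the transcription start of *Pdk4* and *Ucp3*, the targets with an entry in the RefSeq promoter table (GRCm38.p6), are shown because these genes varied together across the mice. Capitals mark AGGTCA, the core hexamer that PPARs, RXRs, and ERRs recognize, found on either strand. The *Pdk4* window is chr6:5496279-5496528, minus strand, and the *Ucp3* window is chr7:100472741-100472990, plus strand.
Pdk4: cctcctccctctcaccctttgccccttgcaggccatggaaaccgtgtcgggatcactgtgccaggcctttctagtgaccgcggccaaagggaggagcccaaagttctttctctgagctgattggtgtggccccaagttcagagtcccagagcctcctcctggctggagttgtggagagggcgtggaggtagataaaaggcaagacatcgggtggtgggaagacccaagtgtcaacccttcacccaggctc
Ucp3: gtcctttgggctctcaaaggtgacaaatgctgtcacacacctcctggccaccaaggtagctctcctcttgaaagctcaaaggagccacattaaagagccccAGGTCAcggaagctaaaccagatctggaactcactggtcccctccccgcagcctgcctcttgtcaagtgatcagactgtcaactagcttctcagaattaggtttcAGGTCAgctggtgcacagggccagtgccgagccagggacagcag

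The *Ucp3* window held AGGTCA at 149 to 144 and again at 44 to 39 bases before the start, and the *Pdk4* window held none. The hexamer was found in 14.0% of the 32851 promoter windows of that length, so that a match is a description and not a site. No window of the 8 members with an entry held TNAAGGTCA, the extended form bound by ERRs (1.14% of windows), the direct repeat of AGGTCA with 1 base between the copies that PPAR and RXR bind (0.0335%), or the full palindromic glucocorticoid response element (0.00913%), each searched on both strands. The ERR form and the direct repeat contain AGGTCA. Among the regulators, 1 of the 2 windows of *Rxra* held the hexamer, at 87 to 82 and at 48 to 43 bases before the start.

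*Pdk4* was at 892.9, 434.3, and 480.7 CPM in WT mice 1, 2, and 3 and 504.7, 1377.1, and 519.7 CPM in *Lztr1* R409C/+ mice 1, 2, and 3. WT mouse 1 was 1.95 times the mean of the other 2 WT mice and *Lztr1* R409C/+ mouse 2 was 2.69 times the mean of the other 2 of its genotype, whereas the remaining 4 mice lay between 434.3 and 519.7 CPM with the genotypes next to each other. The means were 602.6 ± 252.5 and 800.5 ± 499.4 CPM, a ratio of 1.33 with a 95% interval of 0.671 to 2.63 (log2 fold change 0.41, SE 0.43, FDR 0.834). The direction turned without *Lztr1* R409C/+ mouse 2, at a log2 fold change of -0.24. Without WT mouse 1 the direction was the same and the estimate larger, at 0.81.

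*Ucp3* was at 37.7, 18, and 15 CPM in WT and 17.1, 36, and 22.3 CPM in *Lztr1* R409C/+ mice. The same mice were again the highest, here with WT mouse 1 first, and the other 4 did not exceed 22.3 CPM. The means of 23.6 ± 12.3 and 25.1 ± 9.76 CPM were nearly equal (log2 fold change 0.09, SE 0.37, FDR 0.967), with estimates of -0.26 without *Lztr1* R409C/+ mouse 2 and 0.61 without WT mouse 1. *Gm72028* on the opposite strand, not among the genes counted, covers 17.0% of the exon bases of *Ucp3*.

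*Angptl4* was at 9.03, 2.31, and 1.82 CPM in WT and 3.74, 21.0, and 8.0 CPM in *Lztr1* R409C/+ mice, from between 149 and 1505 counts. It spanned 11.6-fold over the 6 mice, and WT mouse 1 stood only 1.13-fold above *Lztr1* R409C/+ mouse 3, the highest of the remaining mice. The means were 4.39 ± 4.03 and 10.9 ± 9.02 CPM, a ratio of 2.5 with a 95% interval of 0.494 to 12.7 (log2 fold change 1.32, SE 0.92, FDR 0.754, exact permutation p = 0.3). Without WT mouse 1, the log2 fold change was 2.41 (FDR 0.606), and without *Lztr1* R409C/+ mouse 2 it was 0.43.

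**Figure D3:**
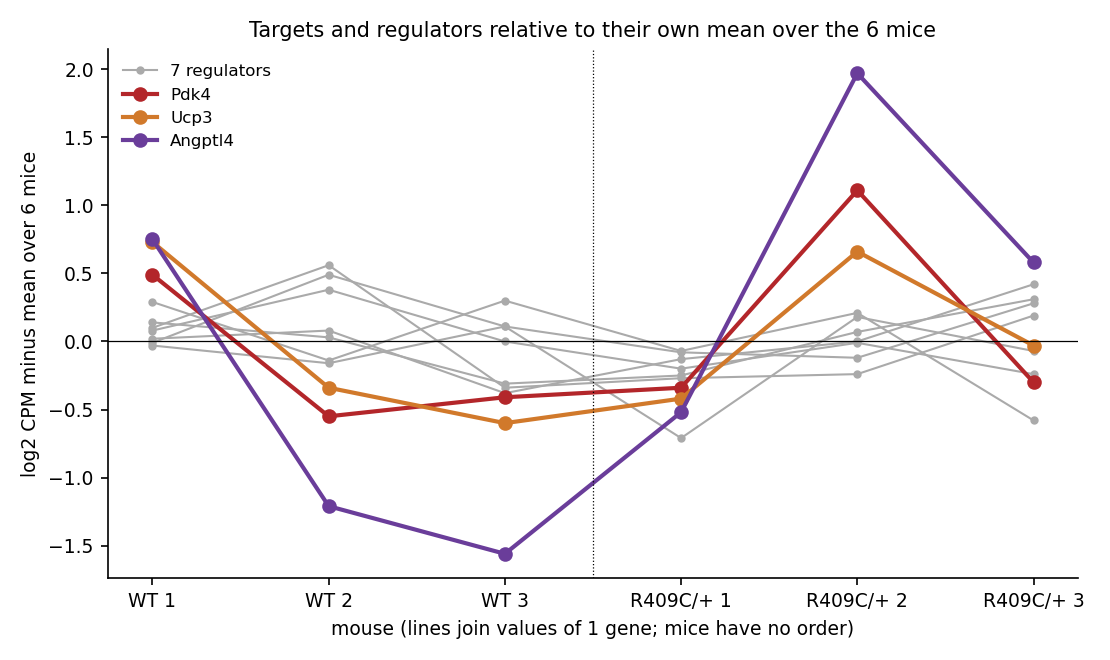
Log2 CPM of each gene minus its mean over the 6 mice (vertical axis) for each mouse (horizontal axis), with the 3 targets in colour and the 7 regulators in grey, and the genotypes separated by a dotted line. The 3 targets peak together in WT mouse 1 and *Lztr1* R409C/+ mouse 2, and no regulator has both of these mice above the other 4.

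The targets therefore shared an order across the mice that crossed the genotypes. WT mouse 1 and *Lztr1* R409C/+ mouse 2 were both above the other 4 mice for 3 of 3 targets and 0 of 7 regulators. Of the 17212 tested genes, 3.32% held this order. These 2 mice were singled out from the values of the targets, so the count for the targets is a description and not a test. Within a genotype, the SD of log2 CPM was 0.54 to 1.25 for targets and 0.12 to 0.46 for regulators. The ratio of the highest to the lowest mouse was 3.17 for *Pdk4*, 2.51 for *Ucp3*, and 11.6 for *Angptl4*, against 1.36 to 2.3 for the regulators and a median of 1.62 over the 13215 tested genes at a mean of at least 1 CPM. A larger ratio than that of *Angptl4* was found in 0.303% of those genes, than that of *Pdk4* in 5.41%, and than that of *Ucp3* in 11.5%. Of the 97 other members and pathway genes compared with each target, the 2 whose log2 CPM followed it most closely over the 6 mice were the other 2 targets, with Pearson r between 0.88 and 0.9. These coefficients describe the same 6 libraries, of which 2 stand apart from the rest, and no test was made of them.

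Of the 88 other pathway genes tested, 3 had both of these mice highest (3.41%), close to the share over all genes. They were *Pparg*, which encodes the adipogenic PPARγ, *Cpt1a*, which encodes a carnitine palmitoyltransferase of the outer mitochondrial membrane, and *Plin2*, which encodes a lipid droplet coat protein. *Cpt1a* was at 41.3, 33.7, and 29.1 CPM in WT and 19.1, 40.0, and 31.6 CPM in *Lztr1* R409C/+ mice. *Dbp* and *Nr1d1*, genes of the circadian clock, were the 2 with the same order among 14 clock genes. *Dbp* was at 10.2, 3.93, and 5.96 CPM in WT and 5.9, 12.0, and 7.49 CPM in *Lztr1* R409C/+ mice. Among 10 glucocorticoid-responsive genes, 1 had it, *Klf9*. The summed CPM of these 10 genes was highest in *Lztr1* R409C/+ mouse 2, at 722.3, and was 535.5 in WT mouse 1, within the 453.2 to 587.8 of the other mice. That of the 14 clock genes was 450.0 in WT mouse 1 and 456.2 in *Lztr1* R409C/+ mouse 2. Both were above the 357.0 to 396.0 of the other mice. This sum joins genes with different orders of the mice. *Arntl* was at 19.8 CPM in WT mouse 1 but lowest in *Lztr1* R409C/+ mouse 2, at 11.4 CPM, and *Cry1* was also lowest there, at 5.41 CPM. The mitochondrial shares of WT mouse 1 and *Lztr1* R409C/+ mouse 2 were 36.5% and 35%, within the range of the other mice. The part of the clock and the glucocorticoid-responsive genes in the order of the targets was not tested.

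Levels of different genes can be compared only per length, as CPM per kb of annotated exon. In WT LVs, *Pdk4* led at 158.8 ± 66.5 CPM per kb, followed by *Ppargc1a* at 24.4 ± 3.98, *Esrra* at 16.4 ± 1.54, *Esrrg* at 8.82 ± 1.24, and *Rxra* at 6.87 ± 1.11. The values of these 5 genes did not overlap between neighbours. From *Rxra* down, every neighbour in the order overlapped the next, through *Ppara* at 4.91 ± 0.925, *Ucp3* at 4.74 ± 2.48, *Ppard* at 3.07 ± 0.472, *Ppargc1b* at 2.04 ± 0.631, and *Angptl4* at 0.976 ± 0.896. In *Lztr1* R409C/+ LVs, *Pdk4* was again first at 210.9 ± 131.6 CPM per kb, and *Ppargc1a* at 20.2 ± 5.32 and *Esrra* at 17.2 ± 2.73 overlapped. With the length of the longest transcript in place of all exons, *Esrra* was at 31.8 and *Ppargc1a* at 25.1 CPM per kb in WT mice, which exchanges their order. The same length also exchanged *Rxra* (8.63) with *Ppara* (9.1) and *Ucp3* (6.12) with *Ppard* (6.19).

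Within their families, the PGC-1 transcripts were mostly *Ppargc1a*, which held 85.5% ± 4.58 of the summed level per length in WT and 83.6% ± 5.29 in *Lztr1* R409C/+ mice. *Esrra* held 55.9% ± 5.38 and 61.1% ± 3.2 of the ERR sum, with *Esrrg* at 30.0% ± 3.98 and 25.7% ± 4.21. *Ppara* held 52.4% ± 6.94 and 44.9% ± 5.41 of the PPAR sum, ahead of *Ppard* in WT and overlapping with it in *Lztr1* R409C/+ mice. *Rxra* was not the most abundant RXR transcript. *Rxrg*, which encodes the muscle-enriched RXRγ, was at 10.8 ± 0.301 CPM per kb in WT and 10.8 ± 0.524 in *Lztr1* R409C/+ mice, above *Rxra* in every mouse.

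Among the pyruvate dehydrogenase kinases, *Pdk4* made up 78.0%, 63.7%, and 68.3% of the summed level per length in the WT mice and had shares of 71.2%, 86.8%, and 70.9% in the *Lztr1* R409C/+ mice, and was largest in the 2 mice with high targets. *Pdk2* and *Pdk1* followed at 39.7 ± 6.29 and 23.6 ± 2.2 CPM per kb in WT mice, and neither had both of these mice above the others. Per longest transcript, *Pdk2* was at 78.4, *Pdk1* at 38.6, and *Pdk4* at 160.3 CPM per kb in WT mice, so that the share of *Pdk4* is smaller on that scale. Of the uncoupling proteins, *Ucp1*, the brown fat form, had 0 counts in all 6 mice, which allows up to 3 counts or 0.0541 CPM.

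**Figure D4:**
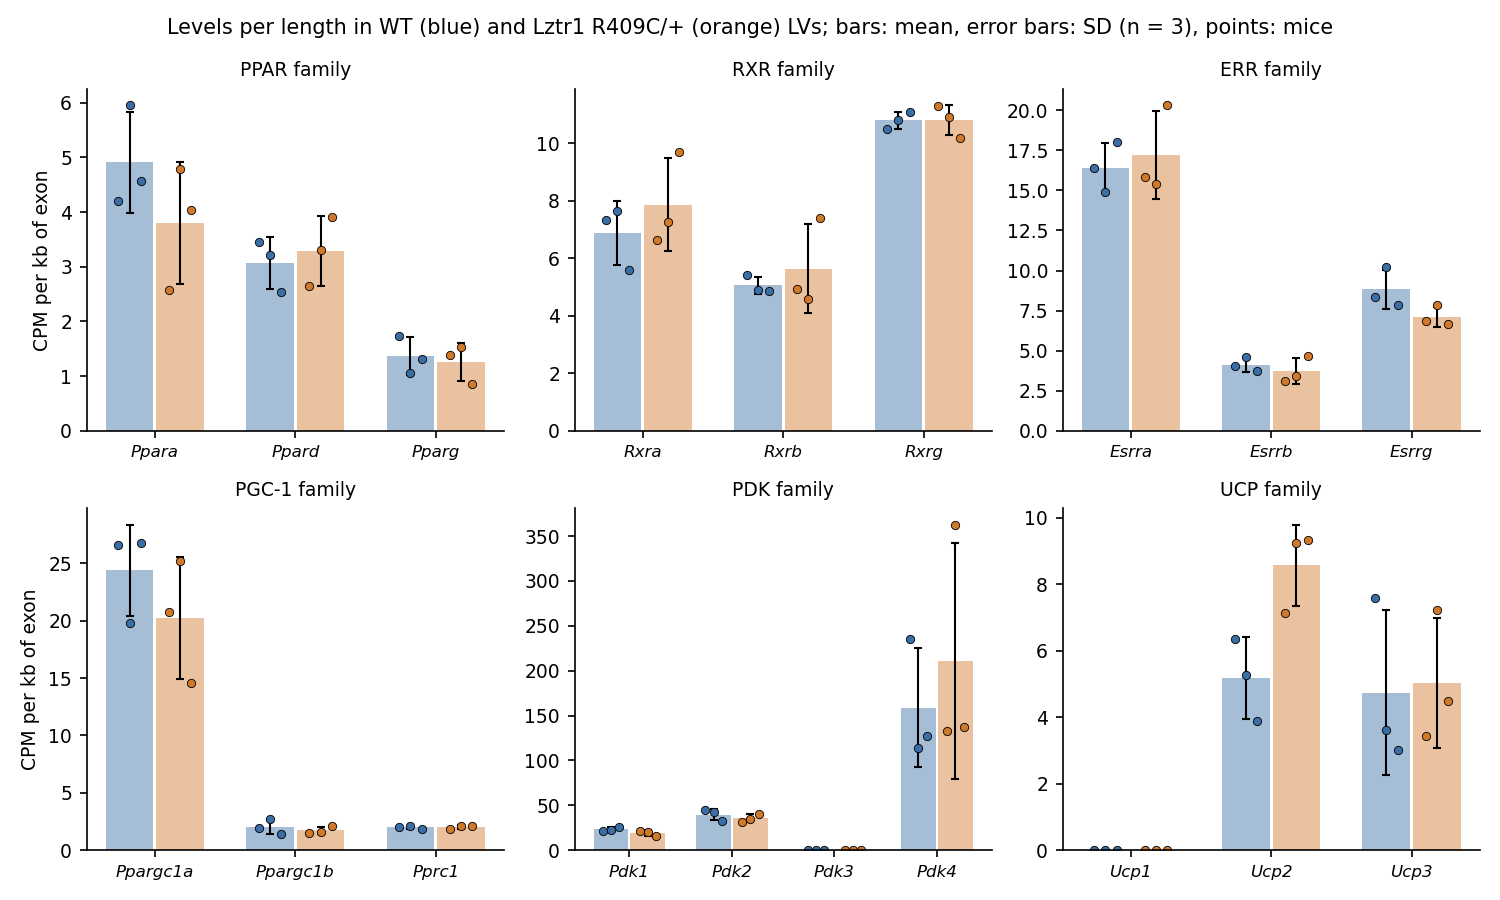
Level per length (CPM per kb of exon, linear axes from 0) of the members and their paralogs by family in WT (blue) and *Lztr1* R409C/+ (orange) LVs, with bars for the mean, error bars for the SD (n = 3), and a point for each mouse. *Ppargc1a* and *Pdk4* hold most of the PGC-1 and PDK sums, *Rxrg* lies above *Rxra*, and *Ucp1* is at 0.

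The other genes of these pathways were taken from lists of receptor and coactivator relatives, cofactors, targets, and paralogs of the targets together with the pyruvate dehydrogenase phosphatase genes. No gene of these lists passed an FDR of 0.05, so that their counts are of estimates on either side of 0. Over all tested genes the median log2 fold change was 0.01, and 48.6% of estimates were below 0. The 6 relatives split evenly, 3 above and 3 below, with a median of 0.0. The 3 with the smallest p were *Esrrb*, which encodes ERRβ (log2 fold change -0.15, SE 0.18, FDR 0.86), *Rxrb*, which encodes RXRβ (0.16, SE 0.19, FDR 0.861), and *Pparg* (-0.12, SE 0.25, FDR 0.928).

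Of 23 partners and cofactors, the estimates of 20 were below 0 and those of 3 above, with a median of -0.12, which was -0.21 without *Lztr1* R409C/+ mouse 2. Without WT mouse 2 there were 8 above, and without *Lztr1* R409C/+ mouse 1 there were 7. *Prkaa2*, which encodes a catalytic subunit of AMP-activated kinase, had a log2 fold change of -0.33 (SE 0.16, FDR 0.599). *Lpin1*, which encodes a phosphatidate phosphatase that also coactivates PPARα, was at 236.8, 237.1, and 228.5 CPM in WT and 138.0, 203.8, and 204.5 CPM in *Lztr1* R409C/+ mice, without overlap (-0.36, SE 0.18, FDR 0.6). Over the 23 genes, 3 were lower and 0 higher without overlap, against 7.23% and 8.3% of all tested genes. The transcription factor gene *Foxo1*, an activator of *Pdk4*, had a value of -0.35 (SE 0.18, FDR 0.629).

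Of 28 PPAR target genes tested from a list of 30, the estimates of 22 were below 0 and those of 6 above, with a median of -0.24, whereas the 3 target members were all above 0 with a median of 0.41, as were 51.4% of tested genes. Without *Lztr1* R409C/+ mouse 2, *Pdk4* was at -0.24 and *Ucp3* at -0.26, whereas *Angptl4* stayed above 0 at 0.43. *Ucp3* was also below 0 without WT mouse 2 (-0.07) and without WT mouse 3 (-0.15). The share below 0 in this list was above the 48.6% of all genes, and 6 genes were lower and 2 higher without overlap, against 7.23% and 8.3% of all tested genes. The share below 0 moved in both directions with the mouse left out. Without *Lztr1* R409C/+ mouse 2, 23 were below 0 and the median was -0.35. Without *Lztr1* R409C/+ mouse 1, 19 were below 0 and the median was -0.14. The latter mouse had the largest mitochondrial share and the lowest summed CPM of the list (12494, against 14104 to 17736 in the other mice). *Lztr1* R409C/+ mouse 1 was also lowest in the summed CPM of the 8 cardiomyocyte markers (24950, against 32977 to 40347 in the other mice). *Lztr1* R409C/+ mouse 3 was at 40074 for these markers but at 14104 for the list, below the 15474 to 17736 of the WT mice. Of the markers, 5 had estimates below 0 and 3 above, with a median over the 8 of -0.23. The part of the mitochondrial share and of the cardiomyocyte markers in the result was not tested. Without both *Lztr1* R409C/+ mouse 1 and WT mouse 3, the median of the list was -0.12. *Hadhb*, which encodes a subunit of the mitochondrial trifunctional protein of β-oxidation, was at 1444.7, 1550.0, and 1454.5 CPM in WT and 944.5, 1283.1, and 1023.3 CPM in *Lztr1* R409C/+ mice (log2 fold change -0.45, SE 0.18, FDR 0.532).

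*Ucp2*, which encodes an uncoupling protein family carrier and is both a PPAR target and the paralog of *Ucp3*, lay on the other side. It was at 46.8, 38.7, and 28.6 CPM in WT and 52.5, 67.8, and 68.4 CPM in *Lztr1* R409C/+ mice, without overlap. Its log2 fold change of 0.73 (SE 0.2) did not pass the threshold (FDR 0.284), and the order of mice was not that of *Ucp3*. *Ucp2* is also known to be expressed in macrophages. All 7 macrophage markers were higher in all 3 *Lztr1* R409C/+ mice than in any WT mouse, as were 8.3% of tested genes. The complement genes *C1qb* and *C1qc* passed the threshold (FDR 0.0241 each), as did 0.0349% of tested genes in that direction. These calls depended on the settings, since no gene was higher past the threshold without both WT mouse 3 and *Lztr1* R409C/+ mouse 1, and 1 to 3 genes were with a single mouse left out. The 7 markers had summed CPM of 92.3 to 97.5 in WT and 174.5 to 196.0 in *Lztr1* R409C/+ mice. The part of these cells in the *Ucp2* difference was not tested.

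Of 20 ERR and PGC-1 target genes, the estimates of 17 were below 0 and those of 3 above, with a median of -0.19. The median was -0.14 without *Lztr1* R409C/+ mouse 1 and -0.06 without that mouse and WT mouse 3, with 5 above 0 in both cases. Without *Lztr1* R409C/+ mouse 2 it was -0.25, with 4 above 0. *Ndufs1*, which encodes the largest subunit of complex I, was at 631.9, 643.2, and 823.8 CPM in WT and 400.8, 553.6, and 508.7 CPM in *Lztr1* R409C/+ mice (log2 fold change -0.52, SE 0.19, FDR 0.47). *Mfn1*, which encodes a mitofusin of the outer mitochondrial membrane, had a value of -0.45 (SE 0.16, FDR 0.47), and *Fh1*, which encodes fumarate hydratase, a value of -0.38 (SE 0.16, FDR 0.551). The groups of each of these 3 genes, which were named for their small p, did not overlap. Over the 20 genes, 6 were lower and 1 was higher without overlap, against 7.23% and 8.3% of all tested genes.

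Of 12 tested genes from a list of 14 that held the paralogs of the targets and 3 pyruvate dehydrogenase phosphatase genes, which are no paralogs, the estimates of 7 were below 0 and those of 5 above. Their median of -0.14 was -0.07 without WT mouse 1 and -0.09 without WT mouse 2 or *Lztr1* R409C/+ mouse 1. Without WT mouse 3 it was -0.2. *Pdp2*, which encodes a phosphatase that reverses the action of the pyruvate dehydrogenase kinases, was at 29.2, 24.0, and 24.5 CPM in WT and 14.5, 23.5, and 19.0 CPM in *Lztr1* R409C/+ mice (log2 fold change -0.45, SE 0.19, FDR 0.554). *Pdpr*, which encodes a regulatory subunit of that phosphatase, had a value of -0.31 (SE 0.16, FDR 0.632).

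**Figure D5:**
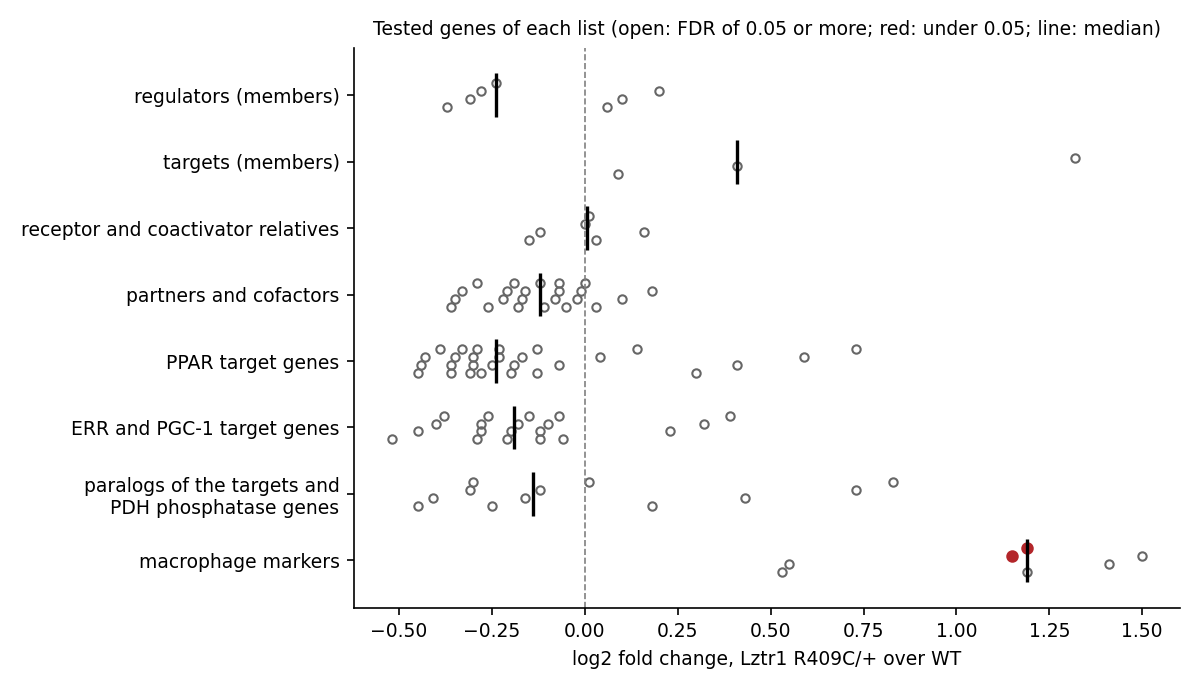
Log2 fold change of *Lztr1* R409C/+ over WT (horizontal axis) for each tested gene of the members, the pathway lists, and the macrophage markers (rows), with the median of each list as a vertical line and genes past an FDR of 0.05 in red. Only 2 macrophage markers are red, and the medians of the PPAR and the ERR and PGC-1 target lists lie at -0.24 and -0.19.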

How the data were processed

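LV transcripts of 3 WT and 3 *Lztr1* R409C/+ mice were grouped by the sample labels. The authors deposited whole-number counts per gene, for which reads were trimmed (Trim Galore), aligned to GRCm39 (HISAT2), cleared of rRNA, and assembled (StringTie). Versions, annotation release, and use of strand are not given in the sources used here. Their table of the edgeR comparison, with deposited log2 fold changes, log2 CPM averages, p-values, and FDR, served for gene names only.

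Counts were filtered with filterByExpr (17212 of 56923 genes), scaled with TMM, and compared with the two-sided robust quasi-likelihood test of edgeR 4.0.16 (R 4.3.3) with Benjamini-Hochberg adjustment at 0.05. The common biological coefficient of variation was 26.1%. CPM were scaled with TMM, and lengths and positions came from GENCODE M39 (GRCm39). The floor of 3 counts covers counting error only. Single genes were also compared with an exact permutation test.

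The members and lists were chosen with earlier results of these data known. The genes named were the 10 members, the 3 genes of each pathway list with the smallest p, and the 2 genes most like each target. A gene under this rule is not reported here. *Cpt1a*, *Plin2*, *Dbp*, *Nr1d1*, *Arntl*, *Cry1*, *Klf9*, *Lztr1*, the macrophage markers, and the paralogs of members were named outside this rule, after their values were seen. Alternatives were other normalizations, filters, and tests (DESeq2 1.42.0), a replicate block, a length correction, and each mouse left out.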

Additional observations from a re-analysis of the deposited data

How the results depend on the processing

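No member passed the threshold under any alternative run. Of 160 estimates of members under alternatives, 149 kept their direction, and 11 did not. Library size only gave -0.1 for *Esrra* and the length correction -0.03. With each mouse left out in turn, log2 fold changes ran from -0.58 to -0.16 for *Ppara*, -0.04 to 0.23 for *Ppard*, -0.47 to -0.09 for *Ppargc1a*, -0.44 to 0.01 for *Ppargc1b*, -0.07 to 0.13 for *Esrra*, -0.39 to -0.19 for *Esrrg*, 0.02 to 0.3 for *Rxra*, -0.24 to 0.81 for *Pdk4*, -0.26 to 0.61 for *Ucp3*, and 0.43 to 2.41 for *Angptl4*. The sign turned for *Ppard* without WT mouse 3 (-0.02) and *Lztr1* R409C/+ mouse 3 (-0.04), for *Ppargc1b* without WT mouse 2 (0.01), for *Esrra* without WT mouse 2 (-0.004) and *Lztr1* R409C/+ mouse 3 (-0.07), for *Pdk4* without *Lztr1* R409C/+ mouse 2 (-0.24), and for *Ucp3* without WT mouse 2 (-0.07), WT mouse 3 (-0.15), and *Lztr1* R409C/+ mouse 2 (-0.26). The cause was not tested.

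Over all genes, 6 were higher and 1 lower. Library size only, which moved the median of all genes from 0.01 to -0.14, gave 15 and 6, no filter 19 higher, a minimum of 10 counts in every mouse 0 lower, the length correction 3 higher, DESeq2 136 and 14, an FDR of 0.1 15 higher, and an unadjusted p under 0.05 993 and 493. With 1 mouse left out there were 1 to 3 higher and 1 to 2 lower, and 0 higher without both WT mouse 3 and *Lztr1* R409C/+ mouse 1, a choice made after seeing the data that gave *Esrra* 0.19. The replicate block left 0 higher. Same-numbered mice did not deviate together (correlations -0.00133, 0.0215, and -0.0573), so that the numbers do not pair them. Under the block, members had log2 fold changes of -0.31 for *Esrrg*, 0.31 for *Pdk4*, and 1.47 for *Angptl4*, and none passed.

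Library size only put 1 relative above and 5 below 0, and 1 cofactor above, and the upper quartile put 6 cofactors above. The list medians with library size only were -0.15 for relatives, -0.26 for cofactors, and -0.38 for PPAR targets. They were -0.33 for ERR and PGC-1 targets and -0.26 for the list with the paralogs, where the median of all genes was -0.14. Per longest transcript, WT levels were 9.1 for *Ppara*, 6.19 for *Ppard*, 2.95 for *Ppargc1b*, 31.8 for *Esrra*, 10.2 for *Esrrg*, and 8.63 CPM per kb for *Rxra*. With 3 mice per genotype, ratios between 0.554 and 1.52 lie inside the 95% interval of at least 1 regulator, and ratios between 0.494 and 12.7 inside that of *Angptl4*.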
